A study of Homo sapiens with 15 samples.

Results

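The genes described here are 7 effectors of the type 2 response: CCL26, CCL24, ITLN1, CST1, CST4, CDH26 and CH25H. They were taken by symbol from the 26475 gene rows of an RNA-seq count table of A549 cells, a line from a human lung adenocarcinoma that is labelled alveolar type II like. Of the 7, CST1, CCL26, ITLN1 and CCL24 had enough counts to be tested, and CST4, CDH26 and CH25H had too few. CST1, CCL26, ITLN1 and CCL24 were all higher in IL4-treated than in untreated cells, CST1 by 10.2-fold and CCL26 by 123-fold in the fitted model. CST1 was lower with ALOX15 siRNA than with control siRNA, by 41.7%, and lower with Compound A than with IL4 alone, by 42.5%, whereas CCL26 passed the test in neither comparison.

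IL-4 is a type 2 cytokine that signals through its receptor and the transcription factor STAT6, and epithelial cells of the airway respond to it by secreting chemokines, lectins and protease inhibitors. CCL26 (eotaxin-3) and CCL24 (eotaxin-2) are chemokines that draw eosinophils through the receptor CCR3. ITLN1 (intelectin-1) is a secreted lectin that binds microbial sugars, CST1 (cystatin SN) and CST4 (cystatin S) are secreted inhibitors of cysteine proteases, CDH26 is a cadherin known from epithelium in eosinophilic disease, and CH25H makes the oxysterol 25-hydroxycholesterol.

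There were 5 groups of 3 libraries: 10 ng/ml IL4 with a Smartpool siRNA to ALOX15 (1 uM), IL4 with a non-targeting control siRNA, IL4 with Compound A, IL4 alone, and untreated cells. RNA was taken after 48 h. Compound A is known here only by that name. For Compound A neither dose nor vehicle is given in the sources used here, and for the control siRNA no dose. Each siRNA was a pool, and no cells received siRNA or Compound A without IL4. Nothing states that the 3 libraries of a group are separate cultures, so the p-values below rest on the spread among these libraries alone, and that spread may be technical.

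Libraries held 6407936 to 11031246 counts, with a median of 7442934. Every pair of libraries of a group differed by more than counting noise, and IL4 replicate 1 stood farthest from its group, with a chi-square per degree of freedom of 9.66 and 12.97 against the other two IL4 libraries. Some results that use it are also given without it, and others are given with it only. All 6 epithelial markers examined were detected. Of 10 alveolar type II markers 2, SFTPB and SLC34A2, had no count in any library. The others had counts, from 2 for SFTPA1 to 6395 for ABCA3, summed over all libraries. Of 20 markers of eosinophils and other cell types, 9 had no count in any library, among them EPX, CLC, SIGLEC8 and PTPRC. In such bulk RNA, fewer cells making a transcript and less of it per cell cannot be told apart.

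ALOX15, the lipoxygenase targeted by the siRNA, had 0.136, 0.314 and 0.319 counts per 1000000 counts (CPM) in the ALOX15 siRNA libraries and 3.91, 3.56 and 3.25 CPM in the control siRNA libraries. The ALOX15 siRNA libraries were all below the control siRNA libraries, as for 9.18% of all genes. ALOX15 was lower by 3.85 on the log2 scale (log2 change -3.85, SE 0.43, edgeR quasi-likelihood test, Benjamini-Hochberg adjusted p = 8.47e-05). It did not reach the count filter through the ALOX15 siRNA libraries, so this call is a description. ALOX15 had 2.59, 2.23 and 1.81 CPM with Compound A, against 6.00, 4.72 and 5.09 CPM with IL4 alone (log2 change -1.23, SE 0.25, edgeR adjusted p = 0.00328). Against control siRNA with IL4 the log2 change with Compound A was -0.68 and missed the threshold (SE 0.27, edgeR adjusted p = 0.163). In untreated cells ALOX15 had 3 counts over the 3 libraries.

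CCL26 (ENSG00000006606, GRCh38 chr7:75769533-75789896, minus strand, 4 exons in the GENCODE v29 transcript used) had 120, 90.4 and 84.7 CPM in IL4 libraries, against 0.627, 0.551 and 1.34 CPM in untreated libraries. Every IL4 library stood far above every untreated library, and IL4 replicate 1 was the highest. Of all genes tested, 15.5% had every IL4 library above every untreated library. The log2 change was 6.94 (SE 0.20, 95% interval 6.52 to 7.37, edgeR adjusted p = 3.66e-15), which was the second highest of the 12795 genes tested. The untreated libraries held 21 CCL26 counts in all, 5 to 9 per library.

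CCL24 (ENSG00000106178) lies 21768 bases from CCL26 on the same strand, at chr7:75811665-75823356, with no annotated gene between. It had 3.82, 2.097 and 1.96 CPM in IL4 libraries and 0, 0.110 and 0.149 CPM in untreated libraries. The IL4 libraries were all above the untreated ones, as for 15.5% of all genes. The log2 change was 4.86 (SE 0.58, edgeR adjusted p = 2.55e-06), or 4.22 without untreated replicate 1, the library with no CCL24 count. Since the untreated libraries held only 2 CCL24 counts in all, the change is better read from summed counts, 59 with IL4 against 2 untreated, a ratio of 35.1 with an exact 95% interval of 9.30 to 297 after scaling for depth. Such intervals, and the floors given below, cover counting error only.

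ITLN1 (ENSG00000179914, chr1:160876539-160885170, minus strand) had 7.91, 5.11 and 6.14 CPM in IL4 libraries and 0, 0.110 and 0 CPM in untreated libraries. It was close to silent in untreated cells, with 1 count in all, against 144 counts with IL4. The ratio of summed counts was 171, with a 95% interval of 30.3 to 6817, and the fitted log2 change was 6.91 (SE 0.53, edgeR adjusted p = 4.77e-09), or 8.62 without untreated replicate 2, which held the single count. IL4 replicates 2 and 3 lay below replicate 1 but well above all untreated libraries, where 15.5% of all genes had no overlap in that direction.

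CST1 (ENSG00000170373, chr20:23747553-23751268, minus strand) had 475, 372 and 343 CPM in IL4 libraries and 40.9, 36.4 and 39.6 CPM in untreated libraries. The untreated libraries lay close together. They were all below every IL4 library, as for 15.5% of all genes, and the log2 change was 3.35 (SE 0.10, 95% interval 3.13 to 3.56, edgeR adjusted p = 8.10e-15). Per kilobase of 1 annotated transcript per gene, CST1 had the highest level of the 7 genes in IL4 libraries, 522 ± 91.6 CPM per kb (SD, n = 3), with CCL26 at 140 ± 26.8, ITLN1 at 5.40 ± 1.198 and CCL24 at 4.49 ± 1.77 CPM per kb. That transcript was a protein-coding one, chosen by its principal-isoform tag first and by length among equals.

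CST1 has near-identical relatives beside it on chromosome 20, CST4 and CST2 (cystatin SA), which bears on how its counts can be read. The CST1 count was not whole in 14 of the 15 libraries, as is that of a gene whose reads are shared with another. Summing CST1, CST2 and CST4 into 1 row, an alternative chosen after seeing the data, changed no CST1 call, and CST2 and CST4 together stayed small beside CST1: CST2 had 1.25 ± 0.233 CPM with IL4 and 0.170 ± 0.0901 CPM untreated (SD, n = 3 each).

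**Figure D1:**
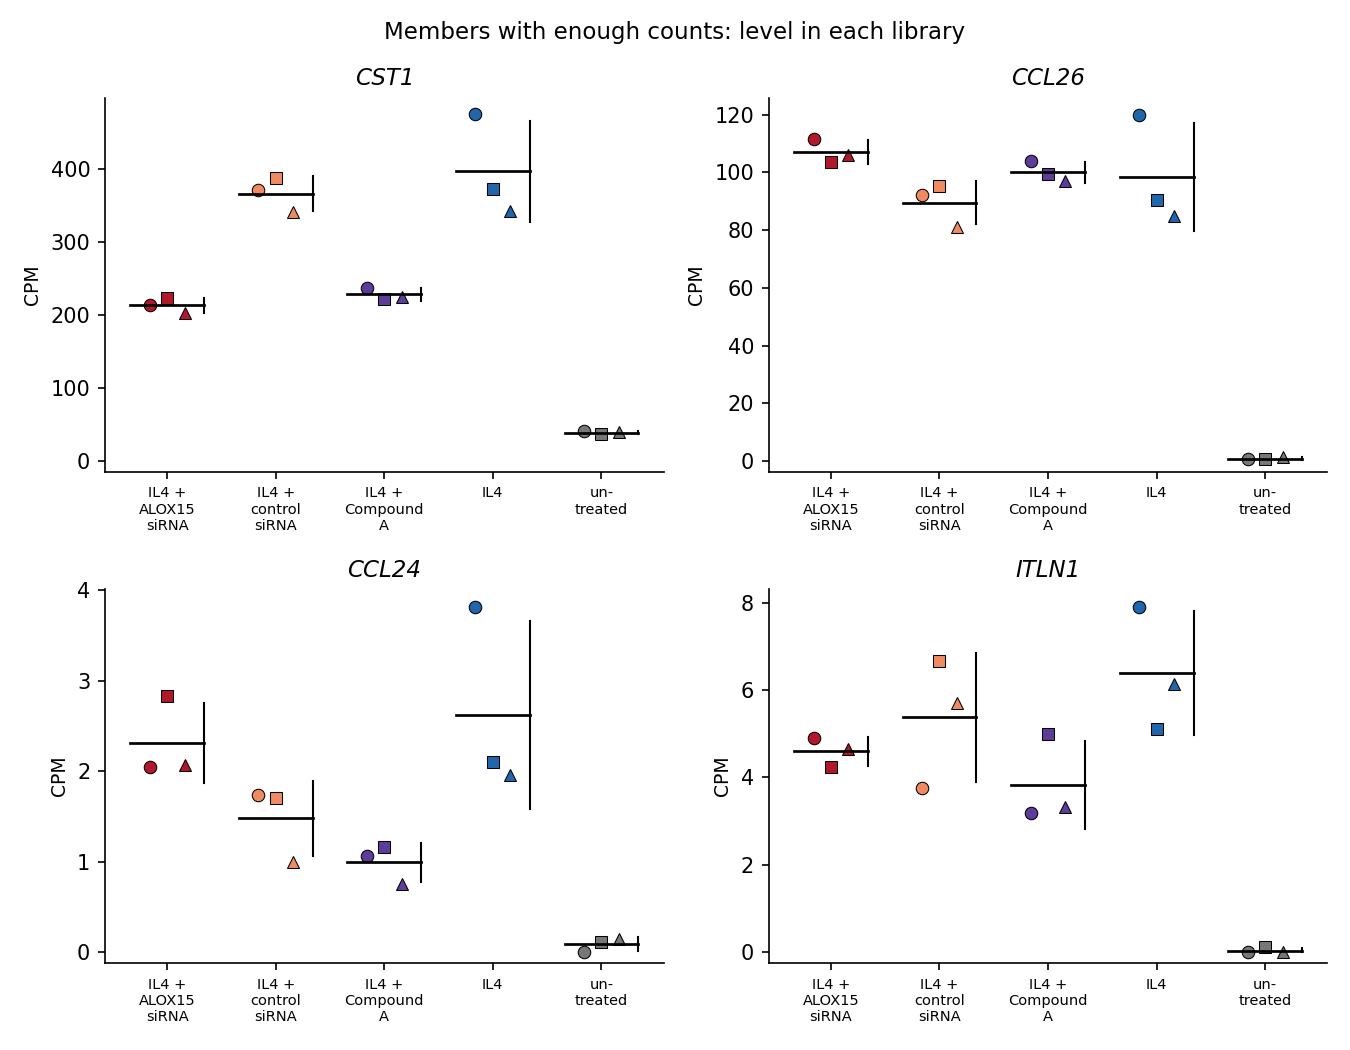
Level in counts per 1000000 counts (CPM, linear axes from 0) of CST1, CCL26, CCL24 and ITLN1 in each library, by group; circles, squares and triangles are replicates 1, 2 and 3, horizontal bars the mean and vertical bars the SD of 3 libraries. CST1 lies between 203 and 238 CPM with ALOX15 siRNA or Compound A and between 341 and 475 CPM with control siRNA or IL4 alone, while CCL26 lies between 81.2 and 120 CPM in all IL4-treated libraries.

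Of the 7 genes, 4 were tested and all 4 passed as higher with IL4, where 11.2% of all genes tested were higher and 22.9% changed in either direction. CCL26, CCL24 and ITLN1 reached the count filter only through the IL4-treated groups, so they could only have differed in that direction, and the count of 4 is a description. The same 4 were higher in each of the other IL4-treated groups against untreated cells. With ALOX15 siRNA and IL4 the log2 changes were 7.07 for CCL26, 4.67 for CCL24, 6.44 for ITLN1 and 2.45 for CST1, where 12.5% of genes were higher. With control siRNA and IL4 they were 6.81 for CCL26, 4.04 for CCL24, 6.66 for ITLN1 and 3.23 for CST1, where 9.93% of genes were higher. With Compound A and IL4 they were 6.97 for CCL26, 3.51 for CCL24, 6.19 for ITLN1 and 2.55 for CST1, where 12.7% of genes were higher. These 4 comparisons share the untreated libraries, and the 4 genes remained called in every fit that left out 1 library. Without untreated replicate 2 the ITLN1 change was 8.14 with ALOX15 siRNA, 8.36 with control siRNA and 7.90 with Compound A, and without untreated replicate 1 the CCL24 change was 4.02 with ALOX15 siRNA, 3.39 with control siRNA and 2.86 with Compound A.

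In the siRNA comparison CST1 was the member that passed the test. It had 213, 224 and 203 CPM in ALOX15 siRNA libraries and 371, 387 and 341 CPM in control siRNA libraries. All ALOX15 siRNA libraries lay below all control siRNA libraries, as for 9.18% of all genes. The log2 change was -0.78 (SE 0.09, 95% interval -0.97 to -0.59, edgeR adjusted p = 1.66e-04), a level 41.7% lower. Only 0.696% of all genes changed in this comparison and 0.383% were lower, and CST1 ranked 4 by p-value among the 49 genes that fell. Of its rise above untreated cells under control siRNA, 53.3 ± 3.16% was present with ALOX15 siRNA (SD, n = 3). That SD covers the spread of the ALOX15 siRNA libraries only, with the control siRNA and untreated means held fixed.

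CCL26 had 112, 104 and 106 CPM in ALOX15 siRNA libraries and 92.1, 95.3 and 81.2 CPM in control siRNA libraries. The ALOX15 siRNA libraries were all above the control siRNA libraries, as for 9.47% of all genes, but the log2 change of 0.26 (SE 0.10, 95% interval 0.043 to 0.48) missed the threshold (edgeR adjusted p = 0.407). It passed without IL4 replicate 1 (edgeR adjusted p = 0.0243). That library is in neither group but enters the filter, the scaling and the shared estimate of spread. CCL26 also passed when just the ALOX15 siRNA and control siRNA groups were fitted (edgeR adjusted p = 0.0185). CCL24 had 2.04, 2.83 and 2.07 CPM with ALOX15 siRNA and 1.74, 1.70 and 0.999 CPM with control siRNA (log2 change 0.63, 95% interval -0.12 to 1.38, edgeR adjusted p = 0.661). ITLN1 had 4.90, 4.24 and 4.65 CPM with ALOX15 siRNA and 3.76, 6.66 and 5.71 CPM with control siRNA (log2 change -0.22, 95% interval -0.74 to 0.31, edgeR adjusted p = 0.883). For ITLN1 the groups overlapped.

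With Compound A, CST1 had 238, 222 and 225 CPM, against 475, 372 and 343 CPM with IL4 alone. The Compound A libraries were all below the IL4 ones, as for 15.7% of all genes. The log2 change was -0.80 (SE 0.09, 95% interval -0.99 to -0.61, edgeR adjusted p = 2.52e-05), a level 42.5% lower. Without IL4 replicate 1 the log2 change was -0.65 (edgeR adjusted p = 1.27e-09), and against control siRNA with IL4 it was -0.68 (edgeR adjusted p = 1.79e-04), where 5.28% of all genes changed. Of its rise above untreated cells under IL4, 52.9 ± 2.32% was present with Compound A (SD, n = 3), or 59.4 ± 2.61% with IL4 replicate 1 left out. These SDs cover the spread of the Compound A libraries only, with the IL4 and untreated means held fixed. In this comparison 14.4% of all genes changed and 8.07% were lower, so a member that fell stood among many.

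CCL26 had 104, 99.3 and 96.8 CPM with Compound A, inside the range of the IL4 libraries, and its log2 change of 0.026 (SE 0.10) had a 95% interval of -0.19 to 0.24 (edgeR adjusted p = 0.891), with the sign turning to -0.010 under upper-quartile scaling. CCL24 had 1.06, 1.17 and 0.755 CPM with Compound A and 3.82, 2.097 and 1.96 CPM with IL4 alone. Its Compound A libraries lay below all IL4 libraries, as for 15.7% of all genes. The log2 change was -1.35 (SE 0.36, edgeR adjusted p = 0.0166) on 25 against 59 summed counts. CCL24 reached the count filter through IL4 and siRNA libraries and not through Compound A libraries, so that call is a description. That call was lost without IL4 replicate 1 (-0.99, edgeR adjusted p = 0.130), by leaving out Compound A replicate 2 (-1.49, edgeR adjusted p = 0.0504) or Compound A replicate 3 (-1.22, edgeR adjusted p = 0.0702), with just those groups fitted (edgeR adjusted p = 0.0727), and against control siRNA (-0.53, edgeR adjusted p = 0.495). ITLN1 had 3.18, 4.99 and 3.32 CPM with Compound A and 7.91, 5.11 and 6.14 CPM with IL4 alone, and its log2 change of -0.71 (SE 0.24) missed the threshold (edgeR adjusted p = 0.0552). It passed at 0.0483 under upper-quartile scaling, at 0.0477 with no filter on low counts, at 0.0385 without IL4 replicate 2, at 0.0450 without Compound A replicate 2, at 0.0474 without control siRNA replicate 1, and at 0.0468 with the replicate number as a block (edgeR adjusted p in each).

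**Figure D2:**
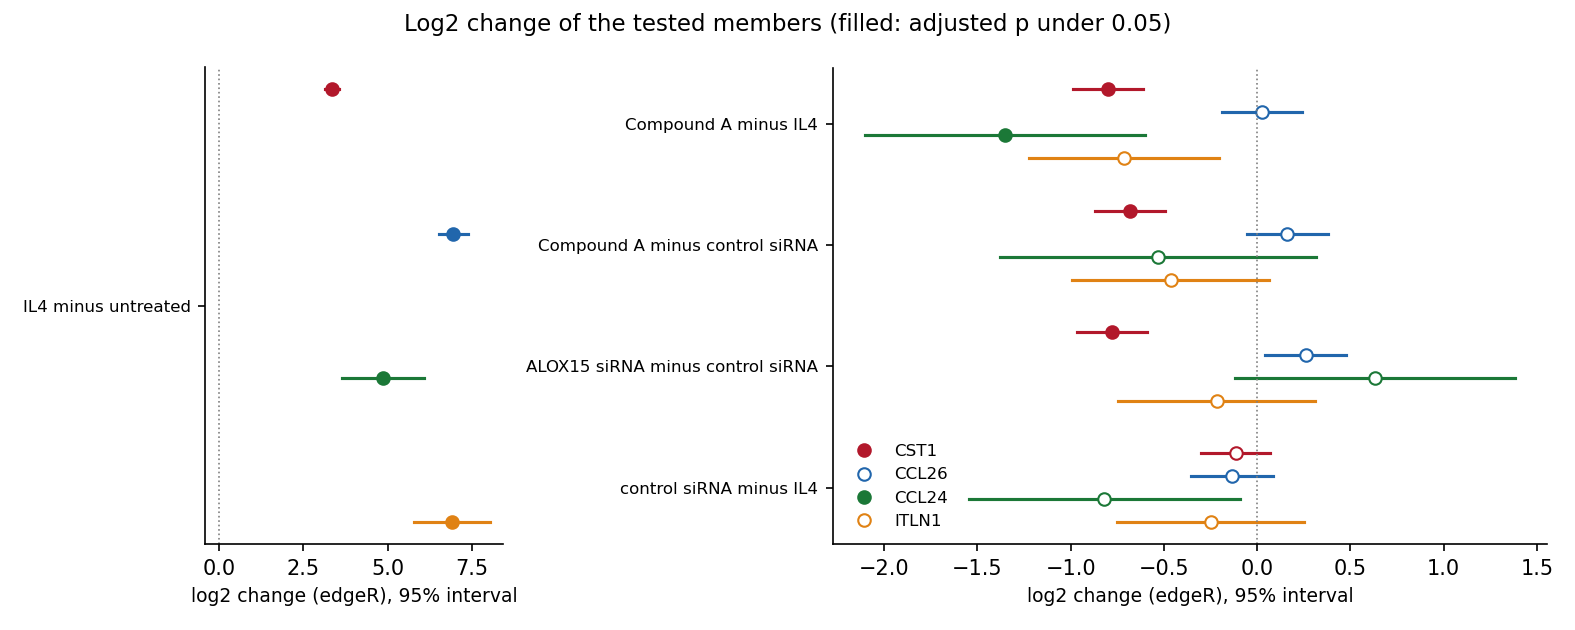
Log2 change of CST1, CCL26, CCL24 and ITLN1 in 5 comparisons (x axis, edgeR estimate with its 95% interval; filled points have an adjusted p under 0.05), with IL4 against untreated on its own axis at the left. CST1 is filled in both Compound A comparisons and in the siRNA comparison, at -0.80, -0.68 and -0.78, and no point is filled for control siRNA against IL4.

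No member passed the test between control siRNA and IL4 alone. The log2 changes were -0.12 for CST1, -0.14 for CCL26, -0.82 for CCL24 and -0.25 for ITLN1, with edgeR adjusted p of 0.898 to 0.908. Of all genes 0% passed in that comparison by edgeR, with 628 at an unadjusted p under 0.05 and 2 passing by DESeq2. The changes with Compound A and with ALOX15 siRNA were then compared directly as a difference of log2 changes. For CST1 the difference was -0.019 (SE 0.13), with a 95% interval of -0.28 to 0.24 (edgeR adjusted p = 0.950), which does not show that both acted alike. For CCL24 it was -1.98 (SE 0.51, edgeR adjusted p = 0.0270), where 5.14% of all genes differed. The CCL24 call was lost without IL4 replicate 1, Compound A replicate 2, Compound A replicate 3, control siRNA replicate 3 or ALOX15 siRNA replicate 2, with values of -2.15 to -1.62 over all such fits. The filter limit given above holds here too, since CCL24 did not reach the count filter through the Compound A libraries.

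Ordered by mean level, CST1 ran from IL4 to control siRNA, Compound A, ALOX15 siRNA and untreated cells. Its neighbours in that order overlapped except at the step from control siRNA to Compound A and at the last step, both of which passed the test. At these steps 15.4% and 20.4% of all genes did not overlap in the same direction. For CCL26 the order was ALOX15 siRNA, Compound A, IL4, control siRNA and untreated, for ITLN1 IL4, control siRNA, ALOX15 siRNA, Compound A and untreated, and for CCL24 IL4, ALOX15 siRNA, control siRNA, Compound A and untreated. In these 3 genes the last step alone passed, and the other neighbours did not differ beyond the test's threshold.

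CST4, CDH26 and CH25H had too few counts for the test across genes. Differences within the counting intervals given here, which reach up to 7.66-fold for CST4 and 5.81-fold for CDH26, were not detectable at this depth. CST4 (chr20:23685640-23689040, minus strand) had 14 rounded counts in the 12 IL4-treated libraries and 3 in the 3 untreated libraries, a ratio of 1.41 after scaling (95% interval 0.394 to 7.66), and its highest library, ALOX15 siRNA replicate 2, held 4.19. None of the 9 libraries with a CST4 count had a whole number, so reads shared with the other cystatins cannot be set apart from CST4's own. CDH26 (chr20:59958427-60034011, plus strand) had 19 counts in the IL4-treated libraries and 4 in the untreated libraries, a ratio of 1.44 (95% interval 0.478 to 5.81). Its highest library was control siRNA replicate 2 with 7 counts, and no other library passed 3. CH25H (chr10:89205629-89207314, minus strand, a gene of 1 exon) had a single count, in Compound A replicate 2. A floor of 3 counts corresponded to 0.269 to 0.471 CPM per library. Exact two-sided permutation tests of the 12 IL4-treated against the 3 untreated libraries gave p = 0.604 for CST4 and 0.609 for CDH26, where the smallest p that 455 splits allow is 0.0022. For CH25H the test could not have passed the threshold whichever library held the single count, so nothing is read from it.

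**Figure D3:**
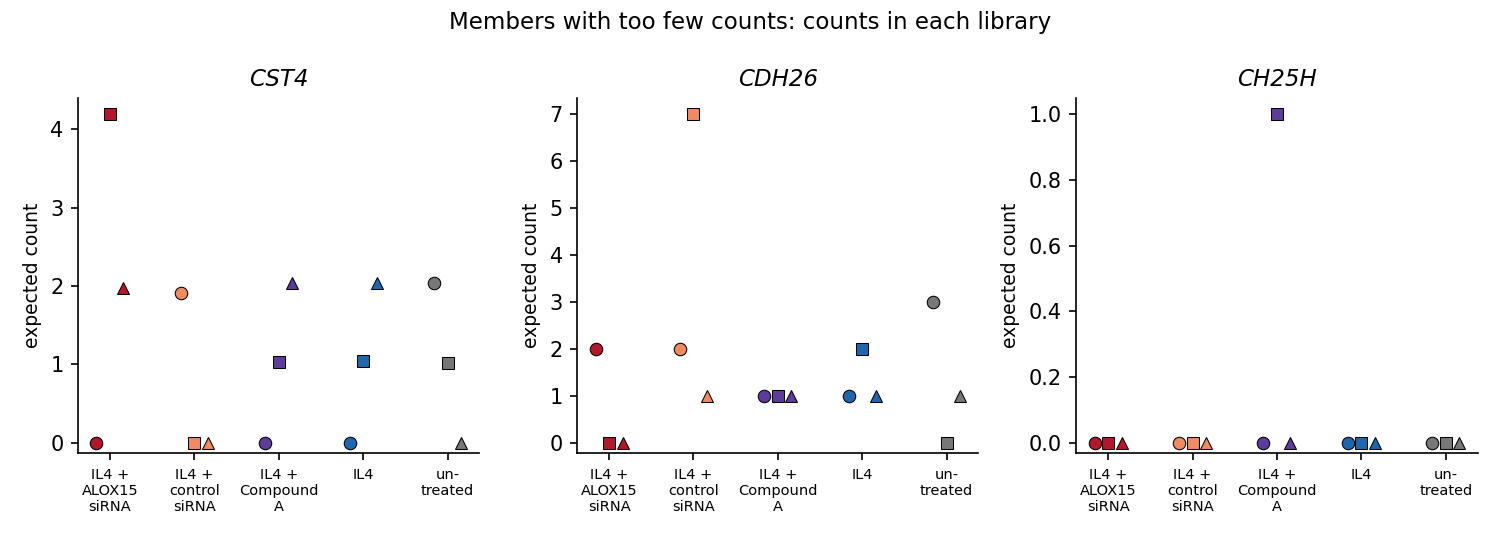
Expected counts (y axis, not scaled for depth) of CST4, CDH26 and CH25H in each library, by group, with circles, squares and triangles for replicates 1, 2 and 3. Only ALOX15 siRNA replicate 2 for CST4, at 4.19, and control siRNA replicate 2 for CDH26, at 7, lie above 3 counts, and CH25H has 1 count in all.

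Other genes of the same pathways were read from lists chosen with earlier results of these data known. Of 23 tested type 2 epithelial response genes, 13 were higher and 3 lower with IL4, where 11.2% of all genes were higher and 11.6% lower, with a median log2 change of 0.70 against -0.022 over all genes. DUOX2, an oxidase that makes hydrogen peroxide, had 303 counts with IL4 and 1 untreated (ratio 361, 95% interval 64.3 to 14294). DUOX2 and ALOX15, both on this list, reached the count filter only through IL4-treated groups, so they could only have been higher. The list's count and median are therefore a description. The same filter limit holds for CST2 and CDH3 below. FOXA3, a forkhead transcription factor, was lower (-0.92, SE 0.19, edgeR adjusted p = 0.00124). With Compound A 2 of the 23 were higher and 5 lower, where 6.35% of all genes were higher and 8.07% lower, and DUOX2 was among those lower (-1.29, SE 0.19, edgeR adjusted p = 2.61e-04). The higher ones were lost without IL4 replicate 1, IL4 replicate 2, Compound A replicate 1 or Compound A replicate 3 and fell to 1 without Compound A replicate 2, and the lower ones were 3 when IL4 replicate 1 or Compound A replicate 3 was left out. With ALOX15 siRNA the 1 gene of the 23 that passed was ALOX15 itself, where 0.696% of all genes changed, but 3 others were higher without IL4 replicate 1 and 1 without IL4 replicate 3.

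The receptor side and the third eotaxin were also examined. CCL11 (eotaxin-1) and CCR3 had no count in any library. IL4R, a subunit of the IL-4 receptor, had a log2 change of 0.31 with IL4 (SE 0.14, edgeR adjusted p = 0.119) and STAT6 one of 0.060 (SE 0.073, edgeR adjusted p = 0.598). Of 38 other chemokines in the table, 20 had no count in any library and 7 were tested. CXCL8, a chemokine for neutrophils, was lower with IL4 (-0.58, SE 0.14, edgeR adjusted p = 0.00487), opposite in sign to CCL26 and CCL24. In all, 4 of the 7 were lower and 1 higher with IL4, where 11.6% of all genes were lower and 11.2% higher, but 2 were lower without any one of untreated replicates 1, 2 and 3, IL4 replicate 2, Compound A replicates 1 and 3, control siRNA replicate 3 and ALOX15 siRNA replicate 2, and the higher one, CCL2, was lost without IL4 replicate 1, IL4 replicate 2 or untreated replicate 2. With Compound A 1 of the 7 was higher, where 6.35% of all genes were, a call that held in only 4 of 15 fits leaving out 1 library (untreated replicate 1 or 3, IL4 replicate 3 or Compound A replicate 1), and with ALOX15 siRNA none passed.

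Among 4 other tested genes of the cystatin and intelectin families, CST2 and CST3 were higher with IL4 and none was lower. Of all genes 11.2% were higher and 11.6% lower. CST2 had a log2 change of 2.93 (SE 0.50, edgeR adjusted p = 1.91e-04), with counts not whole in 14 libraries. CST3 (cystatin C), a broadly expressed inhibitor of cysteine proteases, had 256, 177 and 179 CPM with IL4 and 174, 145 and 134 CPM untreated (log2 change 0.43, SE 0.12, edgeR adjusted p = 0.0135, lost at 0.0536 without untreated replicate 3). It was lower with Compound A, at 147, 141 and 138 CPM (log2 change against IL4 -0.52, SE 0.12, edgeR adjusted p = 0.00802), while with ALOX15 siRNA its log2 change was -0.12 (95% interval -0.37 to 0.13). CST2 passed in neither of these 2 comparisons, with log2 changes of -0.52 with Compound A and 0.23 with ALOX15 siRNA. Of the 4 genes, 1 was lower with Compound A, where 8.07% of all genes were. With ALOX15 siRNA none passed, where 0.696% of all genes did.

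Of 12 other cadherins tested, 5 were higher and 1 lower with IL4, where 11.2% of all genes were higher and 11.6% lower. With Compound A 4 were lower, as were 8.07% of all genes. CDH3 (P-cadherin) had 22 counts with IL4 and 3 untreated (ratio 8.73, 95% interval 2.62 to 45.6), and CDH17 (liver-intestine cadherin) was the lower one, with 84.3 ± 5.46 CPM with IL4 and 164 ± 12.8 CPM untreated (SD, n = 3 each, log2 change -0.96, edgeR adjusted p = 2.66e-09). CDH16 was lower with Compound A (-1.71, SE 0.29, edgeR adjusted p = 6.79e-04). With ALOX15 siRNA no cadherin passed, where 0.696% of all genes did, and 1 was lower without IL4 replicate 1.

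Of 13 tested oxysterol genes, 3 were higher and 1 lower with IL4, or 2 and 2 without untreated replicate 1 or IL4 replicate 3, where 22.9% of all genes changed, so that a few calls in such a list are near the background. HSD3B7, 1 of the 3 higher, was lost without IL4 replicate 1 (edgeR adjusted p = 0.0553). INSIG1, which holds back the cell's own sterol synthesis, was the gene of this list that passed with ALOX15 siRNA, and it was higher there (log2 change 0.55, SE 0.08, edgeR adjusted p = 0.00244). With Compound A it was lower (-0.36, SE 0.09, edgeR adjusted p = 0.0106, lost at 0.0505 without Compound A replicate 3). In all 1 of the 13 was higher and 2 lower with Compound A, where 14.4% of all genes changed, and the higher one was lost without IL4 replicate 1, IL4 replicate 2, Compound A replicate 2 or Compound A replicate 3. The lower ones became 1 by leaving out IL4 replicate 1 or Compound A replicate 2, and 0 by leaving out Compound A replicate 3.

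Markers of cell type moved with some of these groups. The summed level of the 6 epithelial markers was 9794 to 12066 CPM with IL4 and 6344 to 7168 CPM in untreated cells, and 8592 to 9378 CPM with Compound A. Most of that sum was KRT8, with 4895 ± 668 CPM with IL4 and 2843 ± 290.3 CPM untreated, and KRT18, with 4238 ± 363 CPM with IL4 and 2363 ± 106 CPM untreated (SD, n = 3 each). Of the 6 markers 3 were higher with IL4, where 11.2% of all genes were, and 1, EPCAM, was lower, where 11.6% were. The EPCAM change was -0.53 (SE 0.15, edgeR adjusted p = 0.0128), lost without IL4 replicate 2 or without untreated replicate 2 or 3. KRT19, a keratin and 1 of the 3 higher, was lost without IL4 replicate 1 (edgeR adjusted p = 0.0636). With Compound A 4 of the 6 were lower than with IL4 alone and 0 higher, where 8.07% of all genes were lower and 6.35% higher. KRT19 was among those lower (-0.87, SE 0.15, edgeR adjusted p = 0.00105). The 4 became 1 without Compound A replicate 2 and 2 without Compound A replicate 3. The summed level of the 10 alveolar type II markers was 58.6 to 75.3 CPM with IL4 and 39.2 to 39.9 CPM untreated. Nearly all of it was ABCA3, a lipid transporter, with 60.9 ± 9.45 CPM with IL4 and 37.0 ± 1.06 CPM untreated (SD, n = 3 each). Of the 10, 5 had no count in IL4 libraries and 2 were tested, of which 1 was higher, where 11.2% of all genes were. Of the 20 markers of eosinophils and other cell types, 12 had no count in IL4 libraries, and the sum was 20.1 to 27.7 CPM with IL4, against 9.70 to 12.3 CPM untreated, and 9.45 to 12.8 CPM with Compound A. COL1A1, a collagen, was the larger part of that sum, with 18.1 ± 3.86 CPM with IL4 and 6.59 ± 1.19 CPM untreated (SD, n = 3 each). Of these 20 markers 3 were tested, and 1 was higher with IL4, where 11.2% of all genes were. With Compound A 2 were lower, where 8.07% of all genes were. These were COL1A1 (log2 change -1.11, SE 0.16, edgeR adjusted p = 1.94e-04) and LUM (-2.02, SE 0.47, edgeR adjusted p = 0.00791). LUM had 8 counts with Compound A and 31 with IL4 alone. It reached the count filter only through libraries without Compound A, so its call is a description. The part of these markers in the changes of CST1, CCL26, CCL24 and ITLN1 was not tested.

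The genes most like each member were those with the smallest root mean square difference over the 5 group means of log2 CPM, each profile centred on its own mean. For CCL26 these were DUOX2 at 0.755, SLC26A4-AS1 at 0.942, CISH at 0.958, KIRREL3 at 0.990 and FAM26E at 1.02 log2 units. For ITLN1 they were FAM26E at 0.0924, CISH at 0.132 and KIRREL3 at 0.267, and for CCL24 C6orf141 at 0.174, TNFAIP6 at 0.201 and OLFML2A at 0.220. For CST1 they were PDZD4 at 0.291, SLC7A8 at 0.297 and AOX1 at 0.318. The 3 genes nearest to CST1 had nearly equal means with ALOX15 siRNA and control siRNA, 11.1 and 11.3 CPM for PDZD4, 5.44 and 5.57 CPM for SLC7A8 and 20.4 and 20.5 CPM for AOX1, where CST1 had 213 and 366 CPM. SLC26A4-AS1 is an antisense gene, and whether the counting used strand is not stated. With the prior count of 2, a gene with no count has a log2 CPM of -1.95. The untreated means of ITLN1 (-1.78), DUOX2 and SLC26A4-AS1 (-1.73 each) and FAM26E (-1.59) lay near that floor. Their likeness in untreated cells therefore depends on the prior count. For ITLN1, IL4 minus untreated was 6.14 with a prior count of 0.5, where the means with 2 were 2.71 and -1.78.

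**Figure D4:**
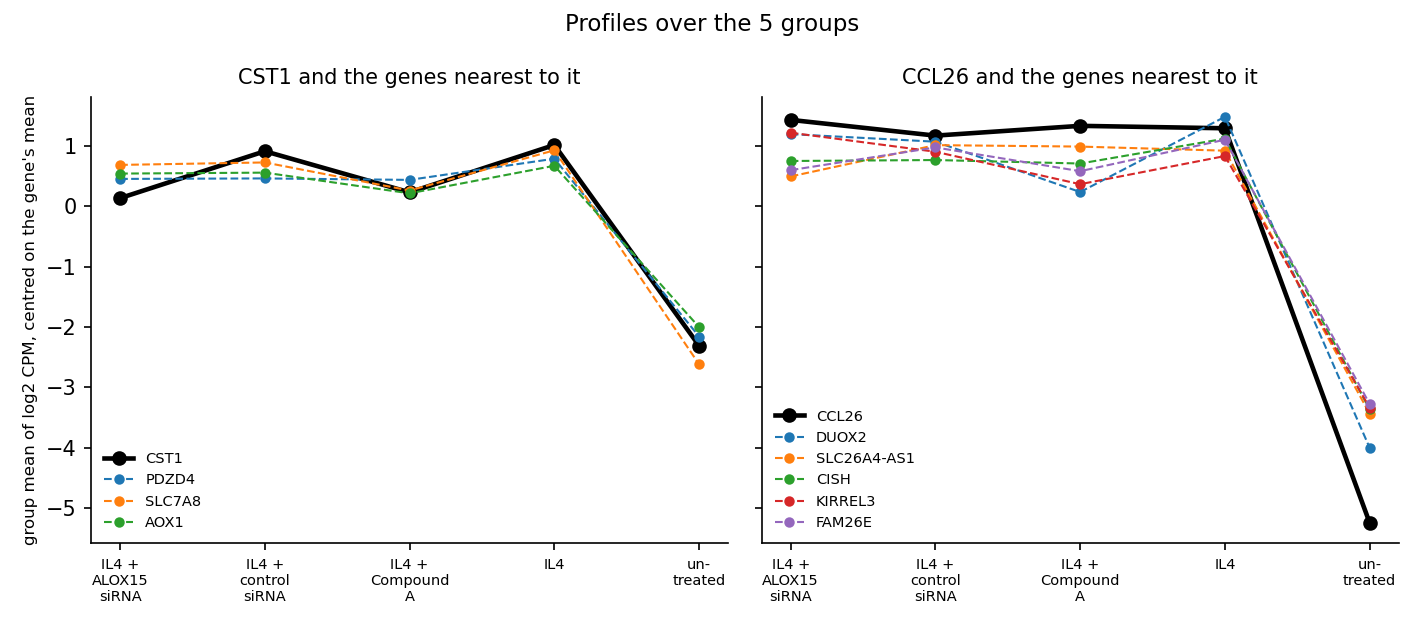
Group means of log2 CPM, centred on each gene's mean over the 5 groups (y axis, log2 units), for CST1 with its 3 nearest genes and CCL26 with its 5 nearest genes; the lines join the groups only to guide the eye. CST1 (black, left) is lower with ALOX15 siRNA than with control siRNA by 0.78 in the fit, while PDZD4, SLC7A8 and AOX1 are level there, and CCL26 (black, right) and its 5 nearest genes are all lowest in untreated cells.

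The 250 bases before the annotated start were read for the members that have an entry in the RefSeq promoter table (GRCh38.p14), 5 of the 7 with 7 starts. They were searched for TTCNNNNGAA, the spacing STAT6 is known to prefer, and for TTCNNNGAA, the spacing other STAT factors prefer. Both motifs read the same on either strand, neither contains the other, and they occur in 5.38% and 6.57% of 35116 such windows of all genes. ITLN1 held TTCNNNNGAA beginning 149 bases before its start (chr1:160885181-160885430, minus strand) and the more downstream of the CCL24 starts held TTCNNNGAA beginning 80 bases before it (chr7:75813807-75814056, minus strand). These 2 windows are shown because they hold a motif, which is in capitals.
ITLN1: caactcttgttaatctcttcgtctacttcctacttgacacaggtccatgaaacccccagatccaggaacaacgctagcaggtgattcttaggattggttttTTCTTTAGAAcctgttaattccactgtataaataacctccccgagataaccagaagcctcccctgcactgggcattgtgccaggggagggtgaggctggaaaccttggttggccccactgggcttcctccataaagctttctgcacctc
CCL24: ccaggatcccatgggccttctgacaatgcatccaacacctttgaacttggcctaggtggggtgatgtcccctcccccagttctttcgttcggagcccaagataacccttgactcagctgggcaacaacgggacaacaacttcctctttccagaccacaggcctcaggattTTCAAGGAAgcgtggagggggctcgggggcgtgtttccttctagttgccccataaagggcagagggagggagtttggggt
The windows of CCL26, CDH26 and CH25H and the other CCL24 window held neither, which says only that these letters are not in these windows. The CCL26 window (chr7:75789747-75789996, minus strand) lies before the RefSeq start and partly inside the GENCODE v29 gene model, which reaches 75789896.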

How the data were processed

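The 15 RNA-seq libraries of A549 cells were read from 1 table. The authors deposited expected counts per gene, made with Bowtie2 2.1.0 and RSEM 1.2.15 on hg38, per the submitters' processing notes; read length, annotation and strand setting are not given. In each library 3.63% to 4.19% of values were not whole. Counts were rounded before testing.

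edgeR's filterByExpr (minimum count 10) kept 12795 genes with at least 99.87% of each library's counts. After TMM scaling, all libraries entered a single robust quasi-likelihood fit with a coefficient for each group (edgeR 4.0.16, R 4.3.3). Benjamini-Hochberg adjustment covered every gene tested, and 0.05 was the threshold. The common biological coefficient of variation came to 0.0731. The fit was tested on simulated data. The SE is the size of the log2 change over the square root of F. CPM uses TMM-scaled library sizes, and log2 CPM a prior count of 2. Members below the filter were compared by an exact permutation test in scipy 1.17.1. DESeq2 1.42.0, other scalings and filters, a replicate block and leaving out each library were alternatives.

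The members and gene lists were chosen with earlier results of these data known. From each list up to 2 highest and 2 lowest genes of those that passed with IL4, and up to 2 that passed with Compound A or ALOX15 siRNA, could be named, and those whose calls held without single libraries were preferred after their values were seen. Positions come from GENCODE v29 and promoter windows from RefSeq. The comparison of cystatin sequences is not reported here.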

Additional observations from a re-analysis of the deposited data

How the results depend on the processing

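CST1, CCL26, CCL24 and ITLN1 stayed higher in all 4 comparisons with untreated cells under every alternative that gave a value. With just the compared groups fitted, CCL24 gave none for Compound A or control siRNA against untreated cells. CST1 stayed lower under every alternative, at -0.89 to -0.65 for Compound A (edgeR or DESeq2 adjusted p up to 0.016) and at -0.89 to -0.74 for ALOX15 siRNA. With just the compared groups fitted, the genes called became 1466 for IL4 against untreated (2925 with all groups), 397 for Compound A against IL4 (1846) and 325 for ALOX15 siRNA against control siRNA (89), and the members called became 1 for Compound A (2 with all groups) and 2 for ALOX15 siRNA (1). Leaving out single libraries gave 769 to 3016 genes and 1 to 3 members for Compound A, 35 to 272 genes and 1 to 2 members for ALOX15 siRNA, 0 to 1 genes for control siRNA against IL4, and 324 to 1153 genes and 0 to 1 members for the difference of both changes (658 and 1 in the fit of all). DESeq2 called 2 genes for control siRNA against IL4, 1 member for Compound A and 0 for the difference, where it gave no adjusted p for CCL24. Control siRNA as comparator left 1 member for Compound A. The cause of these shifts was not tested.

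Signs turned for values near 0: CCL26 with Compound A was -0.010 under upper-quartile scaling and -0.069 to 0.19 without single libraries, CST1 in the difference -0.11 to 0.13, and control siRNA against IL4 -0.23 to 0.030 for CCL26 and -0.21 to 0.035 for CST1. CCL24 with ALOX15 siRNA was -0.19 against IL4 alone. Other scalings moved the median of all genes by -0.035 to 0.026 log2 units.

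Pairing of the samples by replicate number was not established. Same-number correlations were -0.13 to 0.29, and no pair of groups had all 3 above 0.1. Every library nevertheless correlated best with its own number between ALOX15 siRNA and IL4 and between ALOX15 siRNA and untreated. As a replicate block the numbers gave 3363 genes for IL4 against untreated (2925 without the block) and 2508 for Compound A against IL4 (1846). They gave 128 for ALOX15 siRNA against control siRNA (89), and ITLN1 passed with Compound A (-0.73, edgeR adjusted p = 0.0468). Depth limits CST4, CDH26 and CH25H, and leaves CCL24 and ITLN1 with wide intervals against untreated cells.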
